A study of Mus musculus with 12 samples.

Results

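The triad calcium release complex was described through 10 genes: the release channels Ryr1 and Ryr3, the voltage sensor subunits Cacna1s, Cacnb1, Cacng1 and Cacna2d1, the coupling adaptor Stac3, the junctophilins Jph1 and Jph2, and triadin, Trdn. They were taken by gene name from the 78298 genes of the deposited tables, by a rule that uses names and no measured value, though the list of names was drawn up with earlier results of these data known. All 10 were found, and all 10 passed the filter on low counts that left 13318 genes for testing. Poly(A)-selected RNA was sequenced from muscle cultures of C2C12, an established line of mouse myoblasts that fuse into contracting myotubes. The RGECO line carries a genetically encoded calcium indicator, and WT is the wild-type line without it. Both lines were cultured on a hydrogel made of methacrylated gelatin, and RNA was taken after 14 days of differentiation. The differentiation medium of both contained 10% inactivated horse serum, 1 mg per ml of aminocaproic acid and 50 ng per ml of the growth factor IGF-1. RGECO was represented by 5 libraries (replicates 1, 2, 3, 5 and 6) and WT by 6. The sources used here do not give the promoter of the indicator, the way it entered the cells or whether the RGECO line is 1 clone. Nothing in the labels ties the replicates to separate cultures, and the p-values therefore measure a spread between libraries that may be technical.

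In skeletal muscle, the membrane folds inward as T-tubules, and at the triad each tubule lies between a pair of sacs of the sarcoplasmic reticulum, the calcium store. The L-type calcium channel of the T-tubule senses a change in voltage and opens the ryanodine receptor of the store by direct mechanical coupling, without a need for calcium to enter from outside. Junctophilins hold the membranes together, and triadin anchors the calcium-binding protein calsequestrin beside the release channel.

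The RGECO libraries used held 5881622 to 11926220 estimated counts, with replicates 5 and 1 (7480487) the shallowest, and the WT libraries 9370322 to 11744314. RGECO replicate 4 held 825 counts over 252 genes and is left out of every value below unless all 12 libraries are named. All 12 skeletal muscle marker genes on a list were measured, and their summed level was 13820 to 18541 TPM in RGECO against 11133 to 13290 TPM in WT (TPM, transcripts per 1000000, is corrected for transcript length). The ranges of the lines did not overlap, and most of each sum was the actin gene Acta1, with a mean of 9486 TPM in RGECO and 7392 TPM in WT. By edgeR's quasi-likelihood test on counts, with an adjusted p over all 13318 genes and a threshold of 0.05, 1 of the 12 was higher in RGECO, the embryonic myosin Myh3 (log2 fold change 0.54). Lower were 3 of the 12, the perinatal myosin Myh8 (-1.06), the Z-disc protein Actn2 (-0.66) and the myogenic factor Myod1 (-0.51), and the list's median was -0.03. Acta1 was not called by this test (log2 fold change 0.22, adjusted p = 0.448), and its scaled counts overlapped between the lines. Over all tested genes, 3.42% were called higher and 4.93% lower, with a median of -0.01. The 8 proliferation markers summed to 74.7 to 137 TPM in RGECO and 89.2 to 185 TPM in WT, and 0 of the 8 were called higher and 2, Ccnb1 and Aurkb, lower by the same test (median log2 fold change -0.55). Neuron markers summed to 41.4 to 67.0 TPM in RGECO and 33.5 to 49.1 TPM in WT, nearly all of it Stmn2, and 5 of the 9 were at 0 in every library. Of the 8 cardiac markers, which summed to 676 to 1609 TPM in RGECO and 557 to 1043 TPM in WT mostly through Tnnt2, the atrial genes Nppa and Myl7 were at 0. Myh6 had a mean of 11.7 TPM in RGECO and 17.9 TPM in WT, and Tnni3 of 8.69 and 11.2 TPM. Nppb, Nkx2-5 and Ryr2 did not pass the filter on low counts. Adipocyte markers reached at most 0.347 TPM in RGECO and 1.05 TPM in WT, endothelial markers 1.11 and 3.55 TPM, and immune markers 40.4 and 31.4 TPM, mostly Cd68. The part that these marker levels have in the results on the triad genes was not tested.

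Every triad gene was expressed in all 11 libraries, and on the TPM scale the calcium channel gamma subunit Cacng1 was the highest in both lines. Its level was 298 ± 44.1 TPM in RGECO (SD, n = 5) and 305 ± 29.7 TPM in WT (SD, n = 6). Jph2 came next with 162 ± 27.4 TPM in RGECO and 134 ± 22.7 TPM in WT. Below it, Cacnb1 (104 ± 14.8 TPM), Cacna1s (101 ± 13.1 TPM), Cacna2d1 (93.3 ± 19.2 TPM) and Ryr1 (82.5 ± 11.1 TPM) lay close together in RGECO, and each stood above the next of them in 3 or 4 of the 5 libraries. In WT the same 4 genes were more spread out: Cacnb1 had 109 ± 15.3 TPM, Cacna1s 86.8 ± 6.90 TPM, Ryr1 69.0 ± 13.3 TPM and Cacna2d1 64.1 ± 18.3 TPM. Cacnb1 exceeded Cacna1s, and Cacna1s exceeded Ryr1, in 6 of 6 WT libraries, whereas Ryr1 exceeded Cacna2d1 in 3 of 6, so that last order was not resolved.

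The lower end of the order held Jph1, Stac3 and Trdn. Jph1 had 33.3 ± 3.56 TPM in RGECO and 30.1 ± 6.36 TPM in WT. Stac3 had 33.2 ± 12 TPM in RGECO and 46.4 ± 6.85 TPM in WT, and it lay above Jph1 in 6 of 6 WT libraries but below it in 3 of the 5 RGECO libraries. Trdn had 21.3 ± 3.84 TPM in RGECO and 29.2 ± 5.52 TPM in WT. Ryr3 was the lowest member in every library, with 2.20 ± 0.535 TPM in RGECO and 4.19 ± 1.09 TPM in WT.

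**Figure D1:**
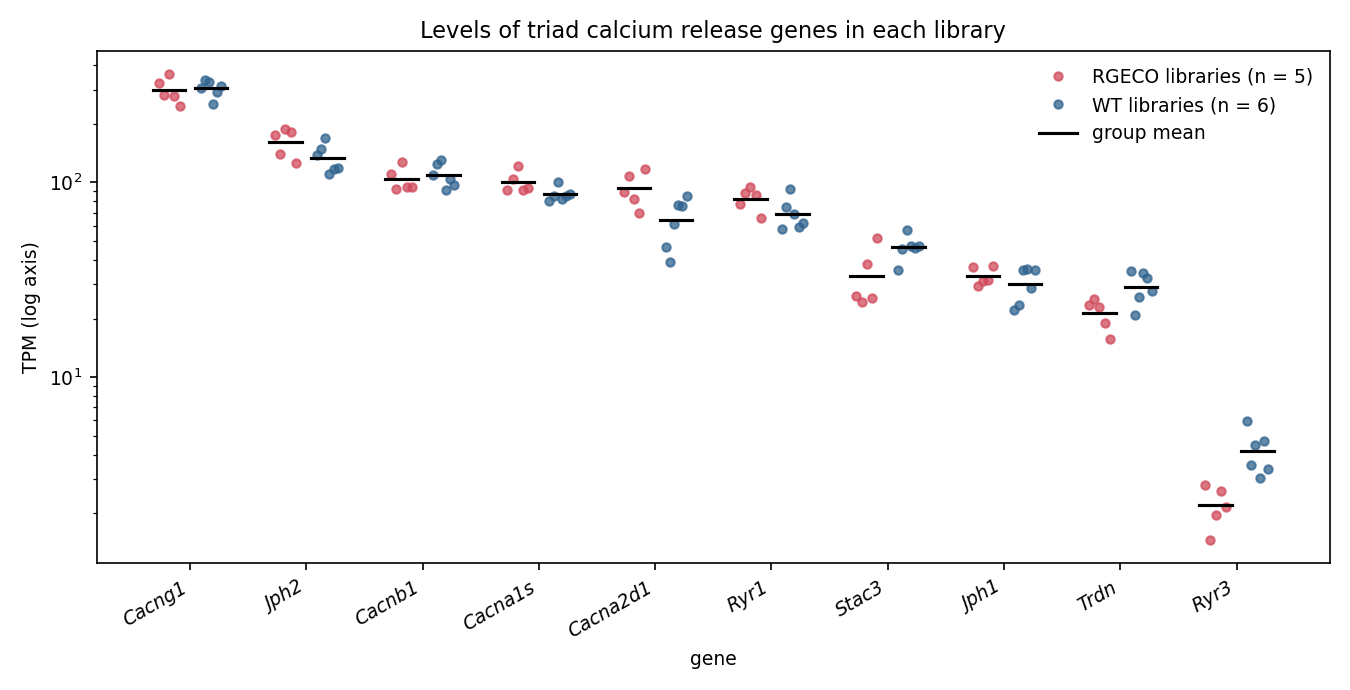
Levels of the 10 triad genes in TPM (log axis) in each library, with RGECO (5 libraries) left of WT (6 libraries) for every gene, points for libraries and bars for the group means. The genes run from Cacng1, near 300 TPM in both lines, down to Ryr3 with 2.20 TPM in RGECO and 4.19 TPM in WT.

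On counts, Ryr3 and Trdn were called lower in RGECO, and the other 8 triad genes did not pass the test. Of 23 alternative fits, 20 kept the call on Ryr3 and 17 that on Trdn, and neither gene was called on a TPM scale. Genes were compared in counts per 1000000 scaled between libraries (CPM), with the same edgeR test and threshold. In all, 8.35% of tested genes were called, 3.42% as higher and 4.93% as lower in RGECO (456 and 656 genes, against 344 and 261 on log2(TPM + 1)). The members called were 0 of 10 higher and 2 of 10 lower, and with 10 genes chosen with earlier results known, nothing about the set as a whole rests on that count. The CPM ranges of the lines did not overlap for the same 2 members, both lower in RGECO. Of all tested genes, 7.97% did not overlap, with 3.47% higher and 4.50% lower in RGECO. The median log2 fold change of RGECO over WT was -0.04 over the members and -0.01 over all tested genes. The 95% interval lay inside a 2-fold change either way for 8 of 10 members, all but Stac3 and Trdn, and for 74.0% of tested genes.

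**Figure D2:**
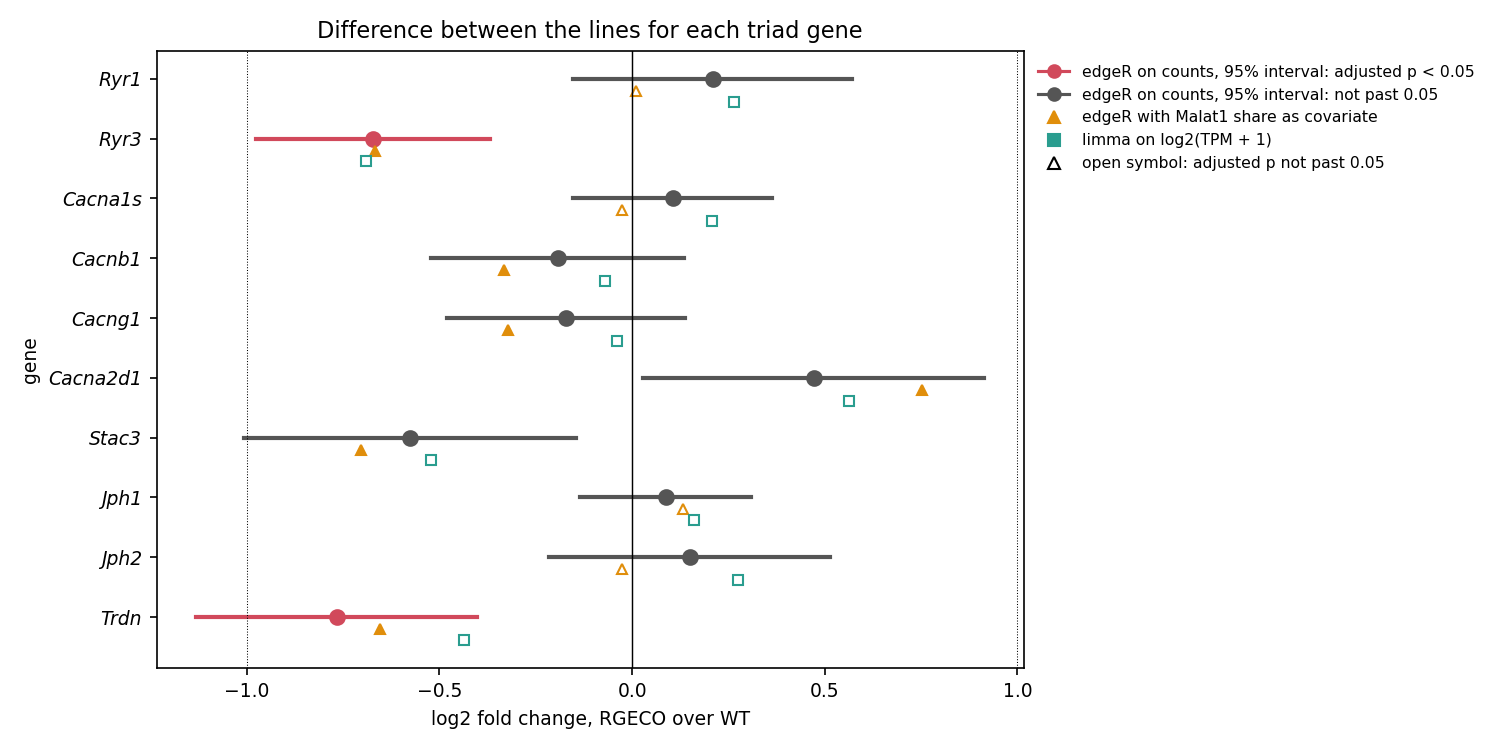
Log2 difference of RGECO (5 libraries) over WT (6 libraries) for each triad gene: circles with 95% intervals from edgeR on counts, triangles from edgeR with the Malat1 share as a term, and squares from limma on log2(TPM + 1), open where the adjusted p did not pass 0.05, with dotted lines at a 2-fold change. On counts Ryr3 at -0.67 and Trdn at -0.77 pass and Cacna2d1 at 0.47 has the highest estimate, and all squares are open.

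Ryr1, on the minus strand of chromosome 7 (chr7:29003344-29125179, GRCm38), encodes the channel through which stored calcium leaves the reticulum in skeletal muscle, and its level was 774, 1030, 1143, 1079 and 757 CPM in RGECO replicates 1, 2, 3, 5 and 6. In WT replicates 1 to 6 it was 760, 1132, 1050, 742, 637 and 641 CPM. The ranges overlapped over most of their width, with 3 high RGECO libraries (2, 3 and 5) and 2 high WT libraries (2 and 3). The log2 fold change was 0.21 ± 0.17 (SE, 95% interval -0.15 to 0.57, adjusted p = 0.526), and with all 12 libraries it was -0.01.

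Ryr3 (chr2:112631355-113217096, GRCm38, minus strand) encodes a second ryanodine receptor, which in mouse skeletal muscle is prominent around birth and then declines in most muscles. Its level was 18.6, 15.5, 18.1, 24.3 and 19.2 CPM in RGECO, against 34.3, 26.5, 34.7, 32.9, 27.3 and 27.0 CPM in WT. All 5 RGECO libraries lay below all 6 WT libraries, the nearest pair being RGECO replicate 5 and WT replicate 2. The fall was 0.67 ± 0.14 on the log2 scale (log2 fold change -0.67, 95% interval -0.98 to -0.37, adjusted p = 0.00779). In bulk RNA, fewer cells that express a gene and less of its RNA per cell cannot be told apart. Ryr3 overlaps Aven on the opposite strand, which had a mean of 33.2 counts per library, and without a stated strand setting reads from the shared stretch cannot be assigned to either gene.

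The call on Ryr3 was not kept in every fit. It was kept when each of the 11 libraries was left out in turn and in DESeq2, but on log2(TPM + 1), with limma, the difference was -0.69 with an adjusted p of 0.0700. On log2(TPM + 0.1), also with limma, the difference was -0.90 (adjusted p = 0.0741). On either scale 0 of 10 members were called. As a share of the summed TPM of the 3 ryanodine receptor genes, Ryr3 made up 3.50, 1.63, 2.02, 2.92 and 3.17% in RGECO, with a mean of 2.65% ± 0.794 (SD, n = 5). In WT its share ranged from 4.25 to 9.38% with a median of 4.89% and a mean of 5.90% ± 2.06 (SD, n = 6). Every RGECO share was below every WT share, a difference of -3.25 percentage points (two-sided exact permutation p = 0.00433, 0.0216 adjusted over 5 shares and ratios, where the smallest p the 462 assignments allow is 0.00216). Without any single RGECO library (replicates 1, 2, 3, 5 or 6) the adjusted p was 0.0714 to 0.0952, with differences of -3.46 to -2.99. From estimated counts in place of TPM, the difference in share was smaller, -1.68 percentage points. The lines then overlapped, as the share in WT replicate 2 was below those in RGECO replicates 1 and 6. Ryr2, the cardiac receptor, had 0 counts over the 5 RGECO libraries and 4 over the 6 WT libraries, so these shares rest on Ryr1 and Ryr3.

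Cacna1s (chr1:136052750-136119822, GRCm38, plus strand) encodes the pore-forming and voltage-sensing subunit of the L-type channel. Its level was 374, 486, 575, 465 and 439 CPM in RGECO and 447, 524, 474, 398, 387 and 377 CPM in WT. The WT range lay inside the RGECO range, and the log2 fold change was 0.11 ± 0.12 (95% interval -0.15 to 0.36, adjusted p = 0.675). Per Ryr1, the channel it couples to, Cacna1s had a geometric mean TPM ratio of 1.22 in RGECO (1.06 to 1.42) and 1.27 in WT (1.08 to 1.45). The log2 difference was -0.06 (two-sided exact permutation adjusted p = 0.645). This ratio thus spanned 1.06 to 1.45 over the 11 libraries, while Ryr1 itself spanned 57.8 to 94.7 TPM and Cacna1s 80.7 to 122 TPM.

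Cacnb1 and Cacng1, both on the minus strand of chromosome 11 (chr11:98001508-98023034 and chr11:107703218-107716522, GRCm38), encode the beta subunit that the channel needs at the triad membrane and the gamma subunit of the skeletal channel. Cacnb1 was at 143 to 202 CPM in RGECO, median 162, and at 144 to 256 CPM in WT, with a log2 fold change of -0.19 ± 0.15 (95% interval -0.52 to 0.14, adjusted p = 0.522). Cacng1 was at 210 to 311 CPM in RGECO and 222 to 386 CPM in WT, with a log2 fold change of -0.17 ± 0.14 (95% interval -0.48 to 0.14, adjusted p = 0.543). For both genes WT replicate 2 held the highest value and the ranges of the lines overlapped. Cacnb1 supplied 59.3% ± 6.32 of the TPM of the beta subunit genes in RGECO and 63.4% ± 1.40 in WT (difference -4.04 percentage points, two-sided exact permutation adjusted p = 0.438). Most of the rest was Cacnb3, a beta subunit best known from other tissues, at 71.7 TPM in RGECO and 62.0 TPM in WT.

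Cacna2d1 (chr5:15934691-16374511, GRCm38, plus strand), the alpha2delta subunit that helps carry calcium channels to the surface, had the highest fold change estimate among the members and did not pass the test. Its level was 254, 378, 260, 238 and 417 CPM in RGECO, against 169, 137, 196, 286, 248 and 302 CPM in WT. RGECO replicates 2 and 6 were above all WT libraries, while the other 3 RGECO libraries lay between WT replicates 3 and 4. The log2 fold change was 0.47 ± 0.21 (95% interval 0.03 to 0.91, adjusted p = 0.193). Cacna2d1 made up 99.5% ± 1.11 of the TPM of the alpha2delta genes in RGECO and 99.9% ± 0.115 in WT.

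Stac3 (chr10:127501686-127508823, GRCm38, plus strand) encodes the adaptor that the skeletal L-type channel needs to reach the T-tubule and to couple to the release channel. Its level was 13.0, 17.8, 27.2, 25.2 and 23.7 CPM in RGECO, against 23.6, 41.3, 41.0, 30.2, 28.6 and 26.9 CPM in WT. RGECO replicates 1 and 2 were below every WT library, and the other 3 overlapped with WT replicates 1 and 6. The log2 fold change was -0.58 ± 0.20 (95% interval -1.01 to -0.15, adjusted p = 0.0966), and with no filter on low counts the adjusted p was 0.0412. Per Ryr1, Stac3 had a TPM ratio of 0.420 in RGECO (0.275 to 0.789) and 0.680 in WT (0.613 to 0.780). The paralog Stac2 had more transcript than Stac3 in both lines, with 141 TPM in RGECO and 105 TPM in WT (log2 fold change in CPM 0.31, adjusted p = 0.184).

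The junctophilins Jph1 (chr1:16964560-17097889) and Jph2 (chr2:163336242-163397993, both minus strand, GRCm38) bridge the T-tubule and reticulum membranes. Jph1 was the steadiest member, at 121, 108, 116, 126 and 138 CPM in RGECO and 98, 114, 133, 120, 104 and 120 CPM in WT. Its log2 fold change was 0.09 ± 0.10 (95% interval -0.14 to 0.31, adjusted p = 0.694). Jph2 was at 402 to 627 CPM in RGECO and 349 to 632 CPM in WT (log2 fold change 0.15 ± 0.17, 95% interval -0.22 to 0.51, adjusted p = 0.675). Jph2 made up 82.5% ± 3.45 of junctophilin TPM in RGECO and 81.3% ± 4.62 in WT, a difference of 1.22 percentage points (two-sided exact permutation adjusted p = 0.645).

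Trdn (chr10:33080554-33476709, GRCm38, plus strand) encodes triadin, which links the release channel to calsequestrin. Its level was 15.6, 19.8, 19.9, 11.7 and 16.9 CPM in RGECO, against 28.9, 20.1, 26.3, 33.9, 29.2 and 33.6 CPM in WT. The ranges did not overlap but nearly met, since WT replicate 2, at 20.1 CPM, was close to RGECO replicates 2 and 3. The log2 fold change was -0.77 ± 0.17 (95% interval -1.13 to -0.40, adjusted p = 0.0104). The call was kept without each of the 11 libraries in turn, and without both of the shallow RGECO replicates 1 and 5 the adjusted p was 0.0697. On log2(TPM + 1) the difference was -0.44 with an adjusted p of 0.163, and in TPM the ranges overlapped, with 15.7 to 25.2 in RGECO and 20.8 to 34.9 in WT.

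**Figure D3:**
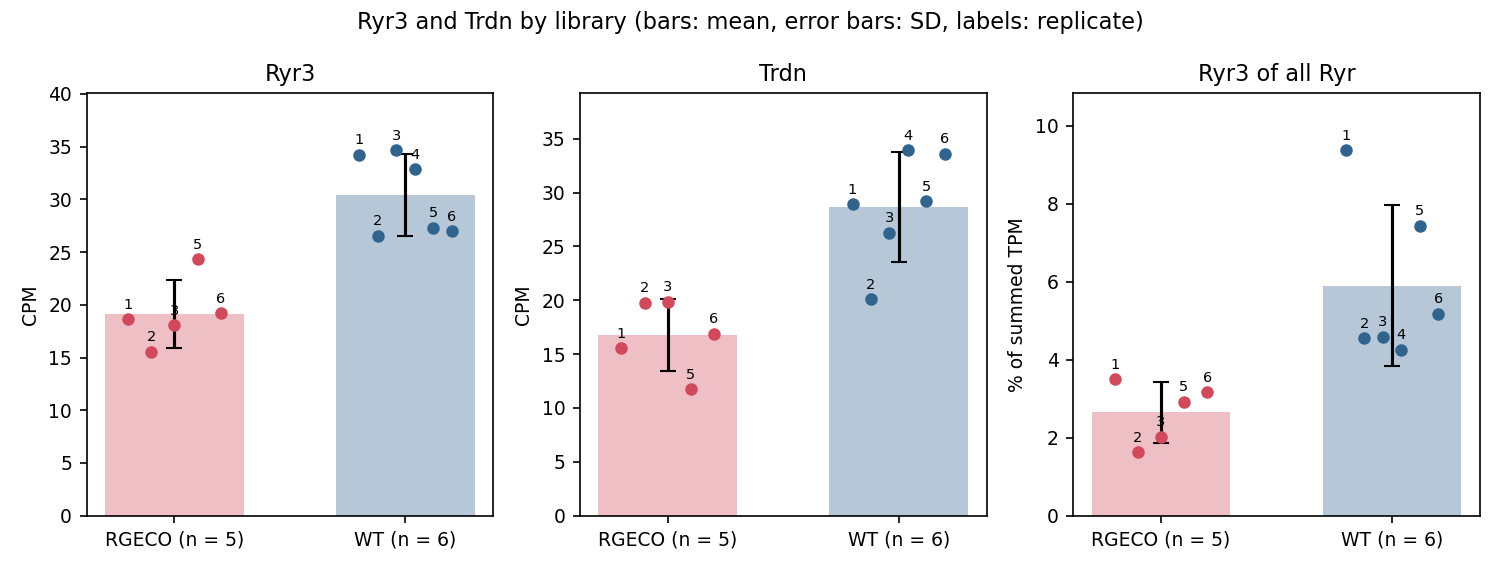
CPM of Ryr3 and Trdn and the Ryr3 share of ryanodine receptor TPM (percent) in each library, RGECO left of WT, with replicate numbers beside the points, bars for means and error bars for SD. In all 3 panels the 5 RGECO points lie below the 6 WT points, and for Trdn RGECO replicates 2 and 3 nearly reach WT replicate 2 at 20.1 CPM.

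Counts and TPM of a gene differ by the transcript length that the quantification assigned to it in each library, which the ratio of estimated count to TPM, set relative to the median gene, gives. For Ryr3 it was 5.23 ± 0.649 in RGECO (4.30 to 6.11, n = 5) and 4.16 ± 1.12 in WT (2.85 to 5.85, n = 6), a log2 difference of 0.36 (two-sided exact permutation p = 0.0952). For Trdn it was 0.469 ± 0.0997 in RGECO (0.347 to 0.617) and 0.546 ± 0.117 in WT (0.412 to 0.743), a log2 difference of -0.22 (two-sided exact permutation p = 0.273). For Stac3 it was 0.396 ± 0.113 in RGECO (0.261 to 0.558) and 0.372 ± 0.0383 in WT (0.332 to 0.420), a log2 difference of 0.05 (two-sided exact permutation p = 0.799). The length of each of these 3 genes spanned 2.14-fold over the 11 libraries, more than the 1.38-fold of the median gene, and 19.3% of 11165 genes spanned over 2-fold. The other 7 members spanned at most 1.32-fold. After adjustment over all genes, 0.00% differed in length between the lines by the exact permutation test, where 422 had an unadjusted p under 0.05. The smallest p that the 462 assignments allow is 0.00216, so no gene could pass alone after adjustment over 11165 genes. The 0.00% therefore does not show that lengths were alike. The annotation lists coding transcripts of 137 to 15468 bases for Ryr3, 356 to 4514 bases for Trdn and 373 to 1790 bases for Stac3, against 15300 to 15358 bases for Ryr1. Cacna2d1, with coding transcripts of 1272 to 7436 bases, spanned only 1.32-fold in assigned length. With these lengths as an offset in the count fit, Ryr3 was at -1.05 (adjusted p = 0.0128) and Trdn at -0.56 (adjusted p = 0.0946). The log2(TPM + 1) fit differs from the count fit in its model as well as its unit, and which of these moved the adjusted p of Ryr3 was not tested.

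**Figure D4:**
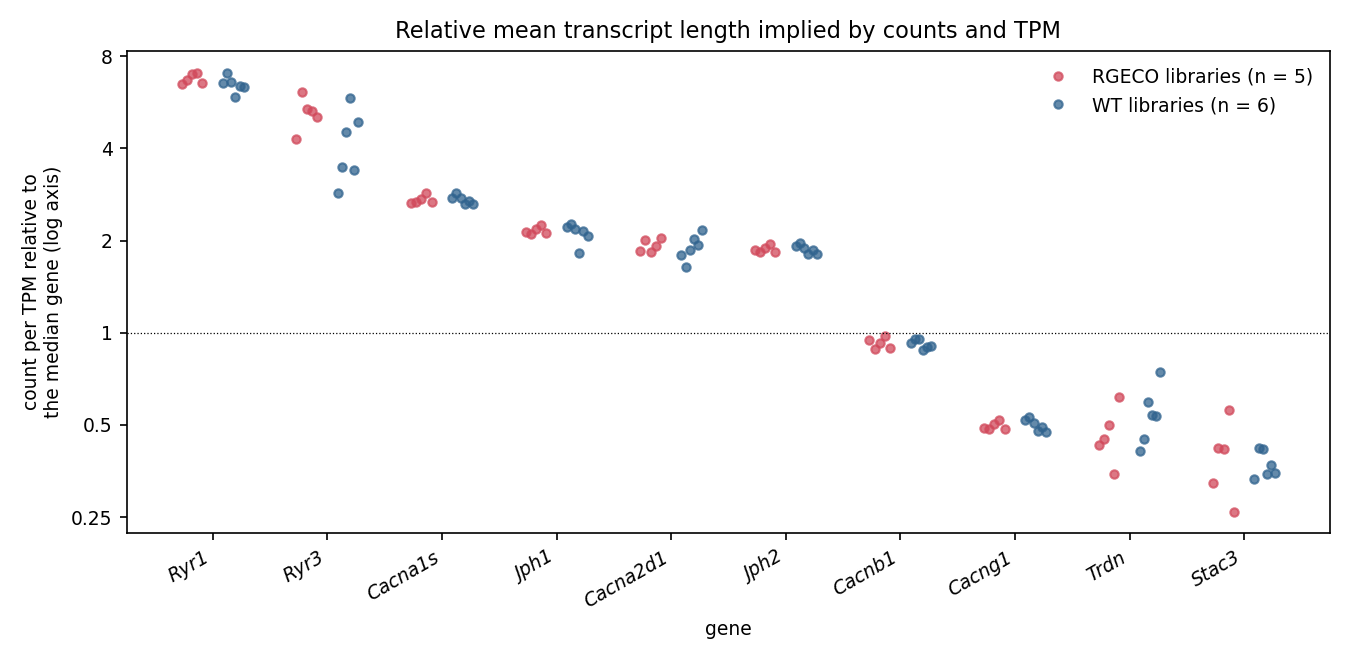
Mean transcript length assigned to each triad gene in each library, as count per TPM relative to the median gene (log axis), RGECO left of WT. Ryr3, Trdn and Stac3 span 2.14-fold over the 11 libraries and the other members at most 1.32-fold.

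The members also varied between libraries of 1 line, and several did so together. Over the 11 libraries, the pair of members with the most alike profiles was Cacnb1 and Cacng1, with a root mean square difference of 0.0893 between log2 CPM deviations from each gene's own mean, followed by Ryr1 with Cacna1s (0.169) and Ryr1 with Jph2 (0.174). Genes outside the triad were closer to Ryr1 (Flnc, 0.0549) and to Cacna1s (Extl3, 0.0511) than these partners. The likeness of Ryr1 with Cacna1s and Jph2 was therefore not particular to the triad. The median over 7640 candidate genes was 0.379 for Ryr1 and 0.299 for Cacna1s. Ryr1 deviated by 0.39 and 0.28 in WT replicates 2 and 3, and by -0.22, -0.44 and -0.43 in WT replicates 4, 5 and 6. Jph2 had 0.40 and 0.20, then -0.38, -0.37 and -0.46, in the same libraries. Cacna2d1 had the opposite sign to Ryr1 in WT replicates 2 and 3 (-0.86 and -0.35), in WT replicates 4 and 6 (0.19 and 0.27) and in RGECO replicate 6 (0.73, Ryr1 -0.19). It had the same sign as Ryr1 in RGECO replicate 2 (0.59, Ryr1 0.25) and WT replicate 1 (-0.56, Ryr1 -0.19), and was at -0.01 in WT replicate 5. The least alike pairs were Cacna2d1 with Stac3 (0.777) and Cacna2d1 with Ryr3 (0.738).

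**Figure D5:**
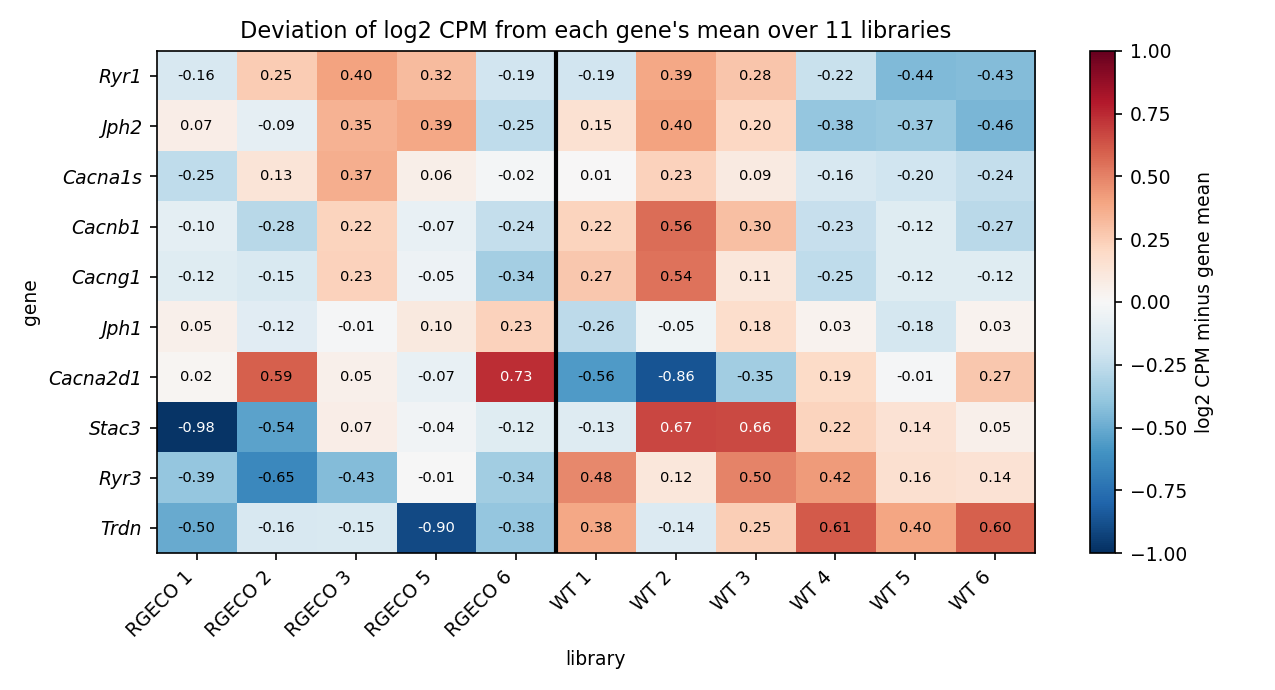
Deviation of log2 CPM from each gene's mean over the 11 libraries, for the 10 triad genes (rows) in RGECO and then WT libraries (columns). Ryr1, Jph2, Cacnb1 and Cacng1 are high in WT replicate 2 and low in WT replicates 4, 5 and 6, and Cacna2d1 is at -0.86 in WT replicate 2 and 0.27 in WT replicate 6.

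Upstream sequence is shown for 3 members with alike profiles, Ryr1, Cacna1s and Jph2, and for Cacna2d1, which was in both of the least alike pairs named. The stretches are the 250 bases before the start site in the RefSeq table of promoters (GRCm38.p6), which matched 5 of the 10 members. Capitals mark E-boxes, the CANNTG motif bound by MyoD, myogenin and related factors, searched on both strands. The positions are chr7:29125152-29125401 (minus strand) for Ryr1, chr1:136052561-136052810 (plus strand) for Cacna1s, chr2:163397994-163398243 (minus strand) for Jph2 and chr5:15934441-15934690 (plus strand) for Cacna2d1, each written 5′ to 3′ along the gene.
Ryr1: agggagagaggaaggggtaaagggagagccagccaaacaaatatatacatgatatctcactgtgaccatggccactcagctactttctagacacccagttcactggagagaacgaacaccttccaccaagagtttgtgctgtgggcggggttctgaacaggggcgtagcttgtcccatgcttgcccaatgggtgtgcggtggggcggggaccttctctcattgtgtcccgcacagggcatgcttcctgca
Cacna1s: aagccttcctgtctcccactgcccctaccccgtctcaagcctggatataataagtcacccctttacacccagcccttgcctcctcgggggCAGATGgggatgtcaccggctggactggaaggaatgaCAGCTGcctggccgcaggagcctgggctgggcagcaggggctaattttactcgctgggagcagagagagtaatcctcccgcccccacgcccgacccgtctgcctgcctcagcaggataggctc
Jph2: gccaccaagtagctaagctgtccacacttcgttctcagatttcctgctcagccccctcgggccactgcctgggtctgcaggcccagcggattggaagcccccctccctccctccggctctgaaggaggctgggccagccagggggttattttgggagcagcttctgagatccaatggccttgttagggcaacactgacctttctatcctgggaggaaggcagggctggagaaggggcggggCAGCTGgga
Cacna2d1: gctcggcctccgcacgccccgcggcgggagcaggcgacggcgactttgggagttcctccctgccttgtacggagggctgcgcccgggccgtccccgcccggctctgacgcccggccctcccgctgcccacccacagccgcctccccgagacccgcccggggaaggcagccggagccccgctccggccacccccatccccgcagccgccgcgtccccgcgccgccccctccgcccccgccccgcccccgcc
Cacna1s holds 2 E-boxes and Jph2 holds 1, and in each gene 1 of them has the CAGCTG core. Cacnb1, the fifth matched member which with Cacng1 formed the most alike pair, has 2 windows that are not printed, 1 with 0 E-boxes and 1 with 1, and Cacng1 was not matched. CANNTG occurs in 66.2% of the 32851 promoter windows of this length and CAGCTG, a subset of it, in 13.0%. No window of the matched members held the MEF2 motif (2.92% of all windows) or the SRF CArG box (1.47%). The Cacna2d1 stretch has 82.4% G and C against a median of 52.4% over all windows. Ryr1 and Cacna2d1 have none in these bases, and the matches describe the letters only.

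RNA content measures also varied between libraries. The Malat1 share of counts, a nuclear RNA, was 0.633, 0.252, 0.180, 0.274 and 0.645% in RGECO and 0.430, 0.156, 0.566, 0.784, 0.641 and 0.898% in WT. The mitochondrial share was 0.509, 0.726, 0.625, 0.298 and 1.33% in RGECO and 0.754, 0.204, 0.530, 1.68, 1.16 and 1.59% in WT. WT replicate 2 was lowest in WT on both and WT replicates 4, 5 and 6 were high on both. Ryr1 and Jph2 were high in WT replicate 2 and low in WT replicates 4, 5 and 6. With the Malat1 share as a term in the edgeR fit, 6 of 10 members were called, where 20.8% of all tested genes were (10.5% higher and 10.3% lower in RGECO). Cacna2d1 was then higher in RGECO, at 0.75 (adjusted p = 0.00453), and Cacnb1 (-0.33, adjusted p = 0.0357), Cacng1 (-0.32, adjusted p = 0.0198), Stac3 (-0.70, adjusted p = 0.0133), Ryr3 (-0.67, adjusted p = 0.00393) and Trdn (-0.65, adjusted p = 0.0116) were lower. With the mitochondrial share as a term the same 6 were called, where 23.5% of all genes were (12.1% higher and 11.4% lower), and Cacna2d1 was at 0.71 and Stac3 at -0.62. Ryr1, Cacna1s, Jph1 and Jph2 were called in neither fit. The part of RNA content in the results was not tested beyond these fits.

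Few paralogs of the members were measurable. Of 14 listed, 4 were tested, 1 was higher and 0 were lower in RGECO, with a median log2 fold change of 0.13 (3.42% higher and 4.93% lower over all tested genes, median -0.01). The gene called was Cacng6, another gamma subunit gene of skeletal muscle, with 11.7 ± 2.42 CPM in RGECO and 7.56 ± 1.15 CPM in WT (log2 fold change 0.63, adjusted p = 0.0494). That call was lost without any of 9 of the 11 libraries, all but RGECO replicate 5 and WT replicate 5, with an adjusted p of up to 0.131. Cacnb2 had a log2 fold change of -0.25, and without RGECO replicate 5, where it had 0 counts, it was 0.02. The neuronal junctophilins Jph3 and Jph4 had 4 and 6 counts over the RGECO libraries, against 7 and 9 over the WT libraries. The cardiac channel Cacna1c had 0 counts in RGECO and 5 in WT.

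Among 19 listed genes of the junctional reticulum and of release control, 18 were tested, 2 were higher and 0 were lower in RGECO, with a median log2 fold change of 0.18 (3.42% higher and 4.93% lower over all tested genes, median -0.01). Sypl2, which encodes a synaptophysin-like protein of the triad junction, had 10.6, 9.83, 12, 12.6 and 12 CPM in RGECO, against 5.76, 7.03, 9.55, 5.51, 3.69 and 4.17 CPM in WT. The ranges did not overlap, and the log2 fold change was 0.94 (adjusted p = 0.0187, and 0.0723 without RGECO replicates 1 and 5). The call on Sypl2 was kept in 20 of 23 alternative fits. Fkbp1b went the other way without overlap, at 2.01 to 3.74 CPM in RGECO and 3.84 to 6.72 CPM in WT. It did not pass the edgeR test (log2 fold change -0.75, adjusted p = 0.0875). Calm2, 1 of 3 genes for calmodulin, was called at 0.47 (adjusted p = 0.0396), but its value moved with the unit, to 1.27 on log2(TPM + 1) (adjusted p = 0.000411) and 1.16 with length offsets (adjusted p = 0.00203). With all 12 libraries Calm2 was at 0.41 (adjusted p = 0.431). Calm2 lost that call without any of 7 of the libraries (RGECO replicates 1, 2, 5 and 6 and WT replicates 1, 2 and 3), with an adjusted p of up to 0.0996, and reads of calmodulin copies may be shared. The most abundant genes of the list that did not pass were Casq2, which encodes a calsequestrin, with 411 TPM in RGECO and 299 TPM in WT (log2 fold change in CPM 0.38, adjusted p = 0.0716), Srl with 354 and 340 TPM, Fkbp1a with 319 and 247 TPM, and Tmem38a, a reticulum potassium channel, with 284 and 219 TPM. The RGECO mean of Fkbp1a was raised by replicate 5, at 556 TPM. Its medians were 246 TPM in RGECO and 238 TPM in WT, and its log2 fold change in CPM was 0.06. Casq2 passed in DESeq2, where its adjusted p was 0.0235.

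Of 10 genes of T-tubule formation and upkeep, all were tested, 0 were higher and 1 was lower in RGECO, with a median log2 fold change of -0.07 (3.42% higher and 4.93% lower over all tested genes, median -0.01). The gene called was Cav3, for the muscle caveolin of developing T-tubules. Cav3 had 37.7, 38.5, 50.4, 45.7 and 32.3 CPM in RGECO, against 96.2, 98.4, 64.5, 51.2, 63.9 and 53.5 CPM in WT. The lowest WT library, replicate 4, lay just above the highest RGECO library, replicate 3. The log2 fold change was -0.80 (adjusted p = 0.0143), with an adjusted p of 0.0518 without RGECO replicate 2 and 0.0732 without RGECO replicates 1 and 5. Bin1, which bends membrane into tubules, had 875 TPM in RGECO and 773 TPM in WT (log2 fold change in CPM 0.07), and Trim72, Ehd1 and Ehd4 were at 0.15, -0.11 and 0.16 without passing the test. The ranges of Ehd4 did not overlap, at 285 to 339 CPM in RGECO and 264 to 278 CPM in WT. Of all tested genes, 3.47% were higher in RGECO without overlap.

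Genes with the profile across the 11 libraries most like a member were named by the root mean square difference of log2 CPM deviations, among 7640 candidates. For Ryr1 these were Flnc (0.0549), Plec (0.0778) and Nherf2 (0.114), with a median of 0.379 over the candidates. Flnc and Plec encode filamin C and plectin, large proteins of the muscle cytoskeleton. Cacna1s was most like Extl3 (0.0511), Mtor (0.0769) and Ogdh (0.0811), with a median of 0.299. Stac3 was matched less closely, by Card14 (0.197), Swap70 (0.210) and Arhgef25 (0.219), with a median of 0.510. The nearest to Ryr3 were Chkb (0.137), Phldb2 (0.172) and Srsf5 (0.174), median 0.458, and the nearest to Trdn were Sgk1 (0.163), Wdfy2 (0.165) and Eya4 (0.180), median 0.535. Each of these neighbours of Ryr3 and Trdn was itself called lower in RGECO, at log2 fold changes from -0.56 (Srsf5) to -0.83 (Sgk1). Likeness here says only that counts moved together over these libraries, the difference between the lines included.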

How the data were processed

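The authors deposited gene-level estimated counts, not normalised, and gene-level TPM, scaled to 1000000 per library, each as a table of all samples made with Salmon, per the file names and headers. The submitters' processing notes list Salmon, STAR, BWA (0.7.12-r1039) and bedtools (2.25.0) and the builds GRCm39, mm10 and hg19, without roles. Annotation release and strand setting are not stated, so coordinates are from GENCODE M21 (GRCm38), matched by gene ID.

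Rounded estimated counts were fitted in R 4.3.3 by edgeR 4.0.16 (filterByExpr, TMM, glmQLFit with robust dispersions, glmQLFTest, Benjamini-Hochberg adjustment over 13318 genes), with 5 RGECO and 6 WT libraries. Standard errors and intervals follow from the F statistic. The common coefficient of variation was 25.2%. RGECO replicate 4 was left out for its total, below a minimum of 1000000 counts. TPM was tested with limma 3.58.1 on log2(TPM + 1), and 5 shares and ratios by two-sided exact permutation. Other alternatives were DESeq2 1.42.0, other scaling, filter and pseudocount, length offsets, covariates, a replicate block and leaving out libraries. Steps were tested on simulated data.

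The members and the gene lists were chosen with earlier results of these data known. The genes named are all members, the genes of 3 lists past adjusted p 0.05 and up to 4 of highest mean TPM in each that did not pass (3 for the paralogs), and the 3 genes most like each of Ryr1, Cacna1s, Stac3, Ryr3 and Trdn among genes whose mean log2 CPM was 4 or more (prior count 2, without predicted or mitochondrial genes). Ryr2, Jph3, Jph4, Cacna1c, Fkbp1b, the other channel genes in the closing section and the marker genes fall outside this rule and were named after their values were seen. No pair of libraries within a line was as alike as sampling noise allows (smallest chi-square per gene 7.61).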

Additional observations from a re-analysis of the deposited data

Results flagged for a closer look

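Within-group values that lie far from the rest of their group were looked for in 70 groups of libraries, of which chance alone marks about 1 in 20, and 2 were found. Cacna2d1 made up 97.478% of the alpha2delta subunit TPM in RGECO replicate 1, below the 99.868 to 100% of the other RGECO libraries. Cacna1s was at 100.03 TPM in WT replicate 3, above the 80.717 to 87.684 TPM of the other WT libraries.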

How the results depend on the processing

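Over all genes, the 1112 calls (456 higher, 656 lower) became 1674 (753 and 921) in DESeq2, 605 (344 and 261) on log2(TPM + 1), 587 on log2(TPM + 0.1), 258 without a filter on that scale, 2771 with the Malat1 share and 3133 with the mitochondrial share as a term, and 785 to 1140 without single libraries. The median log2 difference of all genes was 0.09 on log2(TPM + 1). Of the 10 members, 2 were called with all 12 libraries, RLE size factors, DESeq2 and without each single library, 3 without a filter, 1 (Ryr3) with length offsets, with the replicate block and without RGECO replicates 1 and 5 (chosen after seeing the data), 6 with either share as a term, and 0 on each TPM scale. Replicate numbers did not pair the libraries (correlations of same-numbered deviations -0.15 to 0.36). In the replicate block, Ryr3 was at -0.64 (adjusted p = 0.0423), Trdn at -0.71 (adjusted p = 0.0621) and the Ryr3 share difference at -3.58 (exact permutation p = 0.0625, the smallest 5 pairs allow, adjusted p = 0.312). The Ryr3 share difference was -3.58 to -2.55 without single libraries, and that of Cacna2d1 was -0.547 to 0.0838.

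Signs of small estimates turned. With all 12 libraries Ryr1 was at -0.015, Cacna1s at -0.075, Jph2 at -0.039, Fkbp1a at -0.047 and Bin1 at -0.16. With the Malat1 share Cacna1s was at -0.026, Jph2 at -0.026 and Bin1 at -0.0023, and with the mitochondrial share Jph2 was at -0.00012, Fkbp1a at -0.0068 and Trim72 at -0.026. Cacnb3 was at 0.10 with length offsets and 0.17 on each TPM scale, where Srl was at 0.057 to 0.058. Without RGECO replicates 1 and 5, Cacnb2 was at 0.25, Fkbp1a at -0.075 and Trim72 at -0.086. Without single libraries Cacnb3 ranged from -0.12 to 0.055, Cacnb2 from -0.77 to 0.023, Fkbp1a from -0.020 to 0.12, Trim72 from -0.023 to 0.27 and the Stac3 length difference from -0.085 to 0.19. The cause of these shifts was not tested. RGECO replicates 1 and 5 were the shallowest libraries, and Cacnb2 and the untested paralogs lie near what this depth can show.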

Other observations

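Other calcium channel genes outside the lists were looked at after their values were seen. Cacna1b, the pore-forming subunit of a channel best known from nerve endings, was at 16.5 ± 5.32 CPM in RGECO (SD, n = 5) and 7.39 ± 1.66 CPM in WT (SD, n = 6), with overlapping ranges (log2 fold change 1.16 ± 0.23, edgeR adjusted p = 0.00494). Cacna1g, a T-type channel gene, was at 1.39 ± 0.825 CPM in RGECO and 4.03 ± 1.30 CPM in WT without overlap (log2 fold change -1.54 ± 0.42, edgeR adjusted p = 0.0341), on 62 counts over the RGECO and 243 over the WT libraries. The other pore-forming genes Cacna1a, Cacna1c, Cacna1d, Cacna1e, Cacna1f, Cacna1h and Cacna1i did not pass the filter on low counts.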
